A study of Mus musculus with 24 samples.

Results

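The genes described here are 9 components and regulators of the complement system, C3, C4b, C2, Cfb, Cfi, C1ra, C1s1, Cd55 and Serping1, in mouse kidney. They are the rows of a table of 55416 gene IDs whose Ensembl ID maps to these symbols, and all 9 were found and passed the filter on low values. The table holds 24 kidney libraries, 6 in each of 4 groups. The groups were B-IRI PolgD257A, B-IRI Polg+/+, sham PolgD257A and sham Polg+/+, where B-IRI is the labels' name for an ischemia reperfusion injury of the kidney and sham is the operation without it. Polg encodes the catalytic subunit of the polymerase that copies mitochondrial DNA, and the D257A change removes its proofreading activity, so that mutations gather in mitochondrial DNA. The Polg+/+ animals were littermates of the PolgD257A animals, and the study asked how mitochondrial DNA mutations bear on this kidney injury. The change is carried by the whole animal, so the genotype contrast is not one of kidney cells alone. Sex, age and the time between surgery and sampling are not given in the sources used here.

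Complement is a cascade of plasma and tissue proteins in which proteases cleave C3 and deposit its fragments on surfaces. The classical pathway reaches C3 through the C1 complex (C1q with the proteases C1r and C1s), which cleaves C4 and C2. The alternative pathway builds its C3-cleaving enzyme from a C3 fragment and factor B, the product of Cfb. C1 inhibitor (Serping1), factor I (Cfi) and the membrane protein decay-accelerating factor (Cd55) hold these steps in check. The liver supplies most plasma complement, tubular epithelium can make C3 itself, and the alternative pathway is known for its part in kidney ischemia reperfusion injury in mice.

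On GRCm38 as annotated in GENCODE M21, 4 of the 9 genes lie on chromosome 17, all on the minus strand. C4b runs from 34728380 to 34743882, Cfb from 34856374 to 34862518, C2 from 34862604 to 34898265 and C3 from 57203970 to 57228136. Cfb and C2 are separated by 85 bases, and both overlap the predicted gene Gm20547 on their own strand, which held at most 1.18 normalized counts in any library. C1ra (chromosome 6, 124512405 to 124523443, plus strand) and C1s1 (124530345 to 124542359, minus strand) end 6901 bases apart. Cfi lies on chromosome 3 (129835884 to 129875332, plus strand), Cd55 on chromosome 1 (130439027 to 130462744, minus strand) and Serping1 on chromosome 2 (84765387 to 84775444, minus strand). Whether counting kept the strand is not given in the sources used here, so reads of C2, C1s1 and Cd55 could include some from Zbtb12, Gm16567 and Gm16083 on the opposite strand. C4b, C1ra, C1s1 and Cd55 each have a near-identical copy in the mouse, C4a, C1rb, C1s2 and Cd55b, and how reads were split between the copies is not given. C1rb reached at most 4.58, C1s2 11.67 and Cd55b 1.18 normalized counts in any library, while C4a was counted at a level that passed the filter.

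The promoters of C3 and Cd55 are shown because these genes moved in opposite directions after injury. RefSeq promoter sequences (GRCm38.p6) matched 4 of the 9 genes (C3, C1ra, C1s1 and Cd55). The 250 bases before the annotated start are given 5′ to 3′ on the gene's strand, at chr17:57228137-57228386 for C3 and chr1:130462745-130462994 for Cd55, both on the minus strand. Capitals mark a match to the C/EBP letters TTGCNNAA.
C3 promoter: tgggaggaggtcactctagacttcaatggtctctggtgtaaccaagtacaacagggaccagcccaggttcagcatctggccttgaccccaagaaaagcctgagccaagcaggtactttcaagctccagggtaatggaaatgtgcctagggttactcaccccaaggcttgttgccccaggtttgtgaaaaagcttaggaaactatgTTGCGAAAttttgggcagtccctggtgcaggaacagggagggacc
Cd55 promoter: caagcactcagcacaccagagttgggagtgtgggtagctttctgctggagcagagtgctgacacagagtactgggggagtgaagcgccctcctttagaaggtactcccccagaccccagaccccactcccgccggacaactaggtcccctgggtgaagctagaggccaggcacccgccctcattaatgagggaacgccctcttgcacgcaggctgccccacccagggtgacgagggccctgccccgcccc
The C3 window held 1 match to the C/EBP letters, TTGCGAAA, whose first base lies at -45 from the start, and the Cd55 window held none. Of the other matched genes, C1s1, which was lower after injury, had 2 windows, of which 1 held a match on the opposite strand (TTAGGCAA, first base at -242), and the C1ra window held none. Of 32851 such windows, 9.56% held these letters on either strand. Neither window held the letters searched for STAT (TTCNNNGAA, in 7.02% of windows), NF-kB (GGGA and TTCC with 2 bases of any kind between them, 1.21%), interferon response (GAAA, 2 bases of any kind and GAAA, 2.98%), AP-1 (TGANTCA, 6.75%) or hypoxia (ACGTG, 16.6%), on either strand. These are matches of letters and say nothing about binding.

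Libraries held 16689284 to 26341004 reads assigned to genes, and sham Polg+/+ libraries were the shallowest (16689284 to 19737994). Values below are normalized counts, that is reads per gene divided by 1 size factor per library. Kidney markers were present throughout, with summed levels in every library of at least 247153 normalized counts for the proximal tubule, 68095 for the thick ascending limb and 3954 for podocytes. In the sham groups 4 libraries, 2 of each genotype, held over 50 normalized counts of Adipoq, a gene of fat cells. Sham PolgD257A replicates 3 and 6 held 86.6 and 197.6, and sham Polg+/+ replicates 3 and 5 held 261 and 470, against at most 48.3 in the other 20 libraries. These libraries also had the highest C3 of their group, and results that involve sham kidneys are therefore given with and without them where they change. Below, the libraries with fat-cell RNA are these 4 alone. Sham Polg+/+ replicates 2 and 6 and B-IRI Polg+/+ replicate 6 held 31.6, 48.3 and 35.9 normalized counts of Adipoq. They stayed in the fits without the 4, so fat-cell RNA was lessened there but not removed in Polg+/+ kidneys.

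Fitted changes below are log2 fold changes of normalized count + 1 with the standard error of limma, and a gene is called when its limma p, adjusted over 17430 genes by the Benjamini-Hochberg method, is under 0.05. After B-IRI in PolgD257A kidneys 4 of the 9 genes were called, C3 higher and Cfb, Cd55 and C1s1 lower, where 60.4% of all genes tested were called (30.2% higher and 30.3% lower). In Polg+/+ kidneys the same 4 genes were called in the same directions, where 41.2% of all genes were called (21.4% higher and 19.8% lower). Between the genotypes after B-IRI 3 of the 9 were called, C3 higher and Cfb and Cd55 lower in PolgD257A, where 29.5% of all genes were called. In sham kidneys limma called 0 of the 9, where 0.126% of all genes were called (0.0861% higher and 0.0402% lower). There were also 0 at an unadjusted p under 0.05, and edgeR and DESeq2 called 0. The share called among the 9 was thus near or below the share of all genes in the injury comparisons. The median change of the 9 was -0.12 in PolgD257A and -0.24 in Polg+/+ kidneys after B-IRI, against medians of -0.0011 and -0.0082 over all genes.

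**Figure D1:**
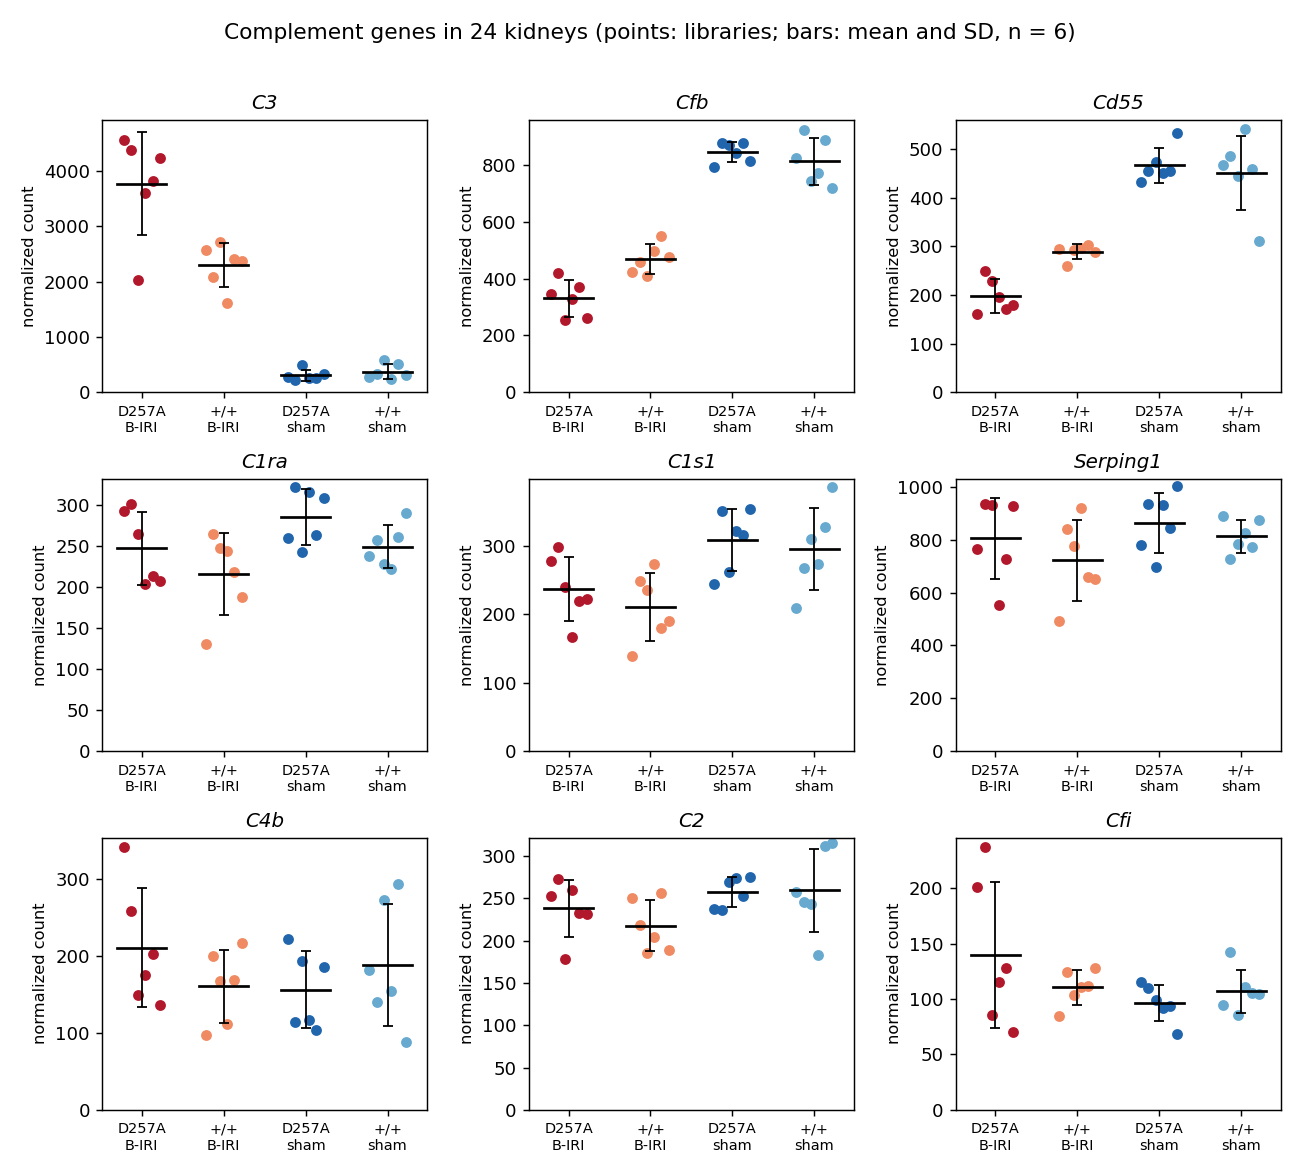
Normalized counts (vertical axes, from 0) of the 9 complement genes in each of the 24 kidneys, with the 4 groups along each horizontal axis, points for libraries and bars for the mean and SD (n = 6). C3 lies at 1607 or more in all B-IRI kidneys and at 587 or less in all sham kidneys, Cfb and Cd55 lie lower in B-IRI kidneys, and the groups overlap for the other 6 genes.

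C3, the protein on which all complement pathways converge, was the only one of the 9 genes called higher after injury. Its normalized count was 2025, 4033 and 4567 (lowest, median and highest of 6) in B-IRI PolgD257A kidneys and 1607, 2388 and 2725 in B-IRI Polg+/+ kidneys. It was 225, 267 and 499 in sham PolgD257A kidneys and 231, 316 and 587 in sham Polg+/+ kidneys. In each genotype every B-IRI kidney therefore lay above every sham kidney, as was so for 18.8% of all genes in PolgD257A and 11.5% in Polg+/+. C3 rose 12.3-fold in PolgD257A (log2 3.62 ± 0.21, adjusted p = 1.8e-13, limma) and 6.38-fold in Polg+/+ (log2 2.67 ± 0.21, adjusted p = 4.1e-10, limma). In bulk tissue, a change in the number of cells of a type and a change in RNA per cell cannot be told apart.

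After B-IRI, C3 was 1.61-fold higher in PolgD257A than in Polg+/+ kidneys (log2 0.69 ± 0.21, adjusted p = 0.016, limma). The ranges overlapped through 1 library, B-IRI PolgD257A replicate 3 with 2025 normalized counts, while the other 5 held 3598 to 4567. The difference was 0.86 without that library. In sham kidneys the genotype difference was -0.25 ± 0.21 (adjusted p = 0.86, limma) and did not pass.

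The rise of C3 was larger in PolgD257A than in Polg+/+ kidneys, as tested by the interaction of surgery and genotype (0.94 ± 0.30, adjusted p = 0.034, limma), for which 15.9% of all genes were called (6.87% higher and 9.08% lower). Besides C3, Cfb and Cd55 were called in this interaction, both lower. The interaction call of C3 was lost when any 1 of 8 libraries was left out. With B-IRI PolgD257A replicate 1 or 6 left out the interaction was 0.88 or 0.90 (adjusted p = 0.064 or 0.052, limma), and with B-IRI Polg+/+ replicate 4 left out it was 0.84 (adjusted p = 0.064, limma). With sham PolgD257A replicate 2, 4 or 5 left out it was 0.86, 0.91 or 0.91, and with sham Polg+/+ replicate 3 or 5 left out it was 0.80 or 0.84, at adjusted p = 0.054 to 0.064 (limma). It stayed positive in each of these fits.

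The sham level of C3 moved with the fat-cell RNA. Sham PolgD257A replicates 3 and 6 held 499 and 323 normalized counts of C3, and the other 4 libraries of that group held 225 to 270. Sham Polg+/+ replicates 3 and 5 held 587 and 511, and the other 4 held 231 to 320. Fat-cell RNA thus went with higher C3 in sham kidneys of both genotypes, and its part in the sham level was not tested. Without these 4 libraries the rise of C3 was 3.84 in PolgD257A and 2.99 in Polg+/+ kidneys (adjusted p = 9.3e-13 and 3.2e-10, limma), and the interaction was 0.85 (adjusted p = 0.034, limma).

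**Figure D2:**
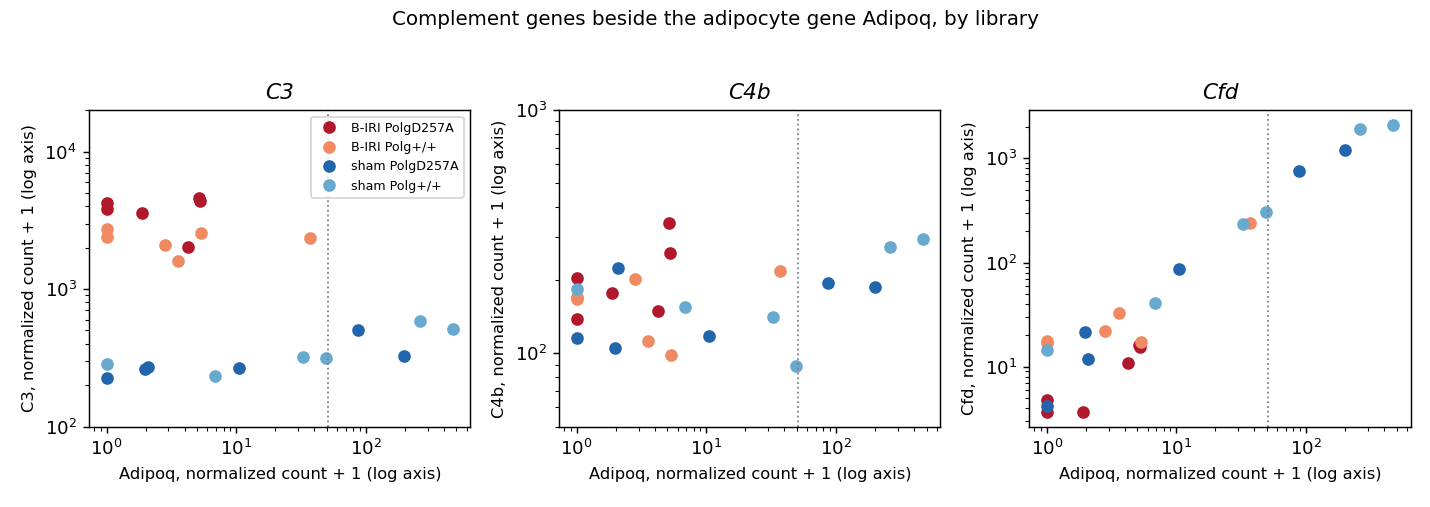
Normalized counts + 1 of C3, C4b and Cfd (vertical log axes) against those of the fat-cell gene Adipoq (horizontal log axes) in 24 kidneys, coloured by group, with a dotted line at 50 normalized counts of Adipoq. The 4 sham libraries right of the line hold the highest Cfd of all libraries (755 to 2101), and the highest C3 of their groups.

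Cfb encodes factor B, whose fragment Bb is the protease of the alternative pathway C3 convertase. Its normalized count was 254, 337 and 421 (lowest, median and highest of 6) in B-IRI PolgD257A and 408, 467 and 551 in B-IRI Polg+/+ kidneys. It was 794, 857 and 877 in sham PolgD257A and 720, 798 and 925 in sham Polg+/+ kidneys. Every B-IRI kidney lay below every sham kidney in each genotype, as was so for 17.5% of all genes in PolgD257A and 8.7% in Polg+/+. Cfb fell by 1.38 ± 0.10 on the log2 scale in PolgD257A kidneys (adjusted p = 4.2e-12, limma) and by 0.79 ± 0.10 in Polg+/+ kidneys (adjusted p = 3.9e-07, limma). The C3 and Cfb genes, whose products join in 1 enzyme, thus changed in opposite directions.

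Cfb also separated the genotypes after injury. It was 1.44-fold lower in B-IRI PolgD257A than in B-IRI Polg+/+ kidneys (log2 -0.52 ± 0.10, adjusted p = 0.00021, limma), with ranges that overlapped only between 408 and 421. In sham kidneys the difference was 0.06 ± 0.10 (adjusted p = 0.93, limma). The fall was larger in PolgD257A than in Polg+/+ kidneys (interaction -0.58 ± 0.14, adjusted p = 0.005, limma). Leaving out any 1 library gave interactions of -0.66 to -0.51, all called, and leaving out the 4 libraries with fat-cell RNA gave -0.59 (adjusted p = 0.027, limma).

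Cd55, the regulator that takes C3 convertases apart on the cell's own membrane, moved as Cfb did. Its normalized count was 160, 188 and 248.5 (lowest, median and highest of 6) in B-IRI PolgD257A and 260, 294 and 302 in B-IRI Polg+/+ kidneys. It was 432, 454 and 533 in sham PolgD257A and 312, 463 and 541 in sham Polg+/+ kidneys. Of the 4 comparisons of these groups, only that between the sham groups had overlapping values. Cd55 was the only one of the 9 genes whose B-IRI groups did not overlap, as was so for 5.94% of all genes in this direction and 4.65% in the other. The sham groups overlapped for all 9 genes, while 0.379% of all genes were higher and 0.252% lower without overlap there.

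Cd55 fell by 1.25 ± 0.11 on the log2 scale in PolgD257A kidneys (adjusted p = 1.1e-10, limma) and by 0.62 ± 0.11 in Polg+/+ kidneys (adjusted p = 3.4e-05, limma). After B-IRI it was 1.48-fold lower in PolgD257A than in Polg+/+ kidneys (log2 -0.57 ± 0.11, adjusted p = 0.0002, limma), and in sham kidneys the difference was 0.06 ± 0.11 (adjusted p = 0.93, limma). The fall was larger in PolgD257A kidneys (interaction -0.63 ± 0.15, adjusted p = 0.0051, limma). Sham Polg+/+ replicate 6 held 312 normalized counts, well under the other 5 libraries of its group (444 to 541). Without it the interaction was -0.53, and over all single libraries left out it ranged from -0.70 to -0.53, all called. Without the 4 libraries with fat-cell RNA it was -0.58 (adjusted p = 0.04, limma).

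**Figure D3:**
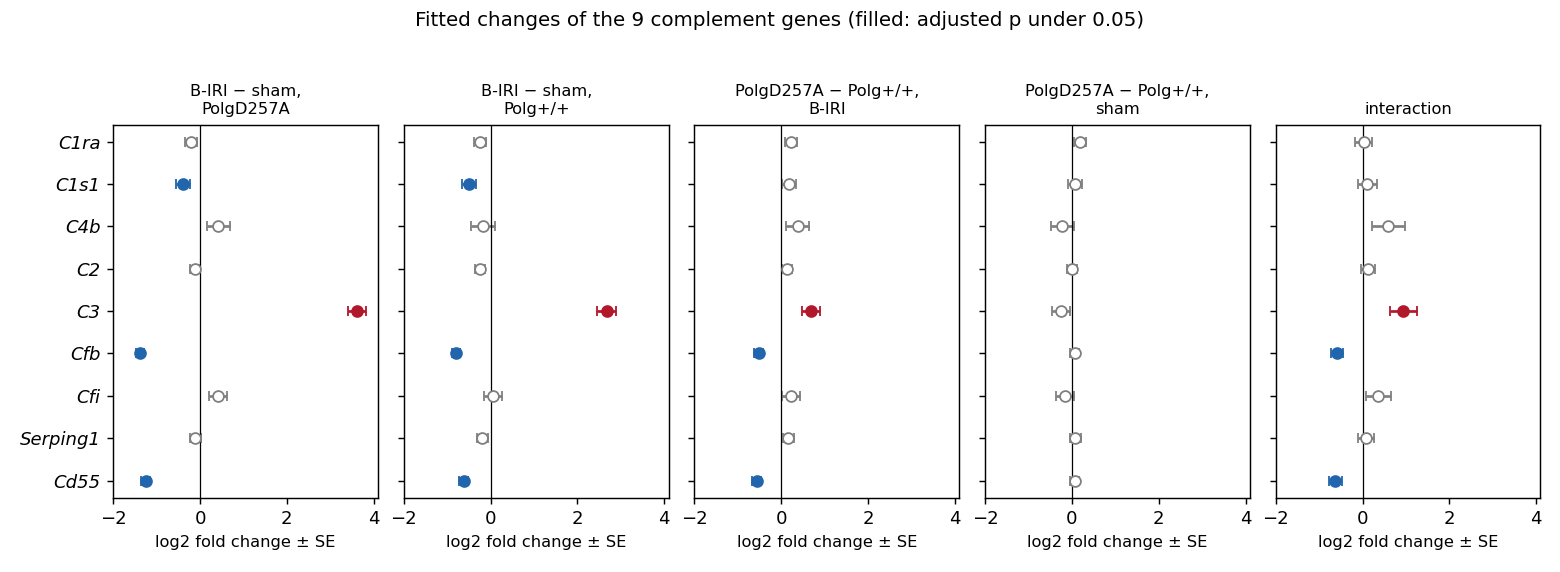
Log2 fold changes (horizontal axes, ± SE of limma) of the 9 complement genes for 5 contrasts, one panel each, with filled points for calls (red higher, blue lower) and open points for genes that did not pass. C3 lies right of 0 and Cfb and Cd55 left of 0 in both injury panels, between the genotypes after B-IRI and in the interaction, and no gene is called between the sham groups.

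The proteases of the C1 complex differed from each other in call but not in direction. C1s1 encodes C1s, which cleaves C4 and C2. It held 166, 230 and 298 normalized counts (lowest, median and highest of 6) in B-IRI PolgD257A and 139, 212 and 273 in B-IRI Polg+/+ kidneys. It held 244, 319 and 354 in sham PolgD257A and 210, 292 and 385 in sham Polg+/+ kidneys. The groups overlapped, and C1s1 fell by 0.39 ± 0.16 on the log2 scale in PolgD257A (adjusted p = 0.035, limma) and by 0.50 ± 0.16 in Polg+/+ kidneys (adjusted p = 0.013, limma).

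Both C1s1 calls were lost without the 4 libraries with fat-cell RNA (-0.39 and -0.43, adjusted p = 0.076 and 0.073, limma). That in PolgD257A was also lost, at adjusted p = 0.056 to 0.11 (limma) and values of -0.38 to -0.29, when B-IRI PolgD257A replicate 4, 5 or 6 or sham PolgD257A replicate 2, 4, 5 or 6 was left out. C1ra, which encodes the C1r protease that activates C1s, held 204 to 301 normalized counts in B-IRI PolgD257A, 130 to 265 in B-IRI Polg+/+, 243 to 322 in sham PolgD257A and 222 to 291 in sham Polg+/+ kidneys. Its change was -0.22 ± 0.14 in PolgD257A (adjusted p = 0.17, limma) and -0.24 ± 0.14 in Polg+/+ kidneys (adjusted p = 0.16, limma), and neither passed.

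C4b and C2, the substrates of C1s that together form the classical C3 convertase, were not called in any contrast. C4b held 137, 189 and 342 normalized counts (lowest, median and highest of 6) in B-IRI PolgD257A, 97.6, 168 and 217 in B-IRI Polg+/+, 104, 152 and 223 in sham PolgD257A and 87.8, 168 and 293 in sham Polg+/+ kidneys. The 4 groups overlapped throughout. Its change was 0.42 ± 0.27 in PolgD257A (adjusted p = 0.18, limma) and -0.17 ± 0.27 in Polg+/+ kidneys (adjusted p = 0.64, limma). Sham Polg+/+ replicates 3 and 5, with fat-cell RNA, held 273 and 293 normalized counts of C4b and the other 4 libraries 87.8 to 183. Without the libraries with fat-cell RNA the Polg+/+ value was 0.17 (adjusted p = 0.66, limma), so its sign was not fixed.

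C2 held 178 to 273 normalized counts in B-IRI PolgD257A, 186 to 256 in B-IRI Polg+/+, 237 to 275 in sham PolgD257A and 183 to 315 in sham Polg+/+ kidneys. It lies next to Cfb, and its change was -0.12 ± 0.12 in PolgD257A (adjusted p = 0.37, limma) and -0.24 ± 0.12 in Polg+/+ kidneys (adjusted p = 0.096, limma). The second of these passed without sham Polg+/+ replicate 4 (-0.34, adjusted p = 0.013, limma).

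Serping1 encodes C1 inhibitor, which removes C1r and C1s from the complex. It held 555 to 935 normalized counts in B-IRI PolgD257A, 494 to 922 in B-IRI Polg+/+, 698 to 1006 in sham PolgD257A and 730 to 892 in sham Polg+/+ kidneys, and the groups overlapped. The change was -0.11 ± 0.13 in PolgD257A (adjusted p = 0.46, limma) and -0.19 ± 0.13 in Polg+/+ kidneys (adjusted p = 0.24, limma). Cfi encodes factor I, the protease that inactivates C3b and C4b. It held 70.7, 122 and 238 normalized counts (lowest, median and highest of 6) in B-IRI PolgD257A, 84.6, 112 and 128 in B-IRI Polg+/+, 68.5, 96.4 and 116 in sham PolgD257A and 85.6, 105 and 143 in sham Polg+/+ kidneys.

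In B-IRI PolgD257A kidneys Cfi was high in replicates 1 and 2 (202 and 238) and lay within the range of the sham kidneys in the other 4. The change of 0.42 ± 0.21 did not pass (adjusted p = 0.085, limma). It passed by edgeR (0.54, adjusted p = 0.031) and DESeq2 (0.53, adjusted p = 0.023), and by limma without B-IRI PolgD257A replicate 3 (0.53, adjusted p = 0.032) or 6 (0.59, adjusted p = 0.011). In Polg+/+ kidneys it was 0.05 ± 0.21 (adjusted p = 0.87, limma). The interactions of C1ra, C1s1, C2, C4b, Cfi and Serping1 lay between 0.03 and 0.59, and none passed.

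Per kilobase of exon (union of annotated exons), the order of the 9 genes differed between B-IRI and sham kidneys. C3 had the highest mean level in B-IRI kidneys, at 734 ± 180 normalized counts per kb in PolgD257A and 446 ± 77.6 in Polg+/+ (SD, n = 6), followed by Serping1 with 347 ± 66.0 and 311 ± 66.1. The ranges of C3 and Serping1 within 1 SD touched in Polg+/+ but not in PolgD257A kidneys. In sham kidneys Serping1 came first, at 372 ± 48.9 in PolgD257A and 350 ± 26.7 in Polg+/+, followed by Cfb with 300 ± 12.4 and 288 ± 29.0. C3 came 7th in sham PolgD257A kidneys (59.7 ± 19.3) and 6th in sham Polg+/+ kidneys (72.7 ± 27.5), and the mean of C2 lay within 1 SD of that of C3 in each. Cfb came 3rd in the B-IRI groups, and C4b had the lowest mean in all 4 groups, with 37.0 ± 13.6, 28.2 ± 8.32, 27.4 ± 8.84 and 33.1 ± 14.0 in the order of the groups above. How reads were split between C4b and its copy C4a is not given, so the rank of C4b could depend on it. C1ra, C1s1 and Cd55 had means within 1 SD of each other in sham PolgD257A kidneys. In sham Polg+/+ kidneys those of C1s1 (94.5 ± 19.2) and Cd55 (93.0 ± 15.7) lay above that of C1ra (83.7 ± 8.64) by more than the SD of C1ra but less than their own. C1ra and C1s1 had means within 1 SD of each other in each B-IRI group, where Cd55 came 8th in PolgD257A (40.6 ± 7.13) and 6th in Polg+/+ kidneys (59.6 ± 3.06).

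Markers of several cell types moved with injury. Of 8 proximal tubule markers, 8 were lower in PolgD257A and 7 in Polg+/+ kidneys after B-IRI, and their summed normalized count ran from 247153 to 413974 in B-IRI PolgD257A, 433195 to 542256 in B-IRI Polg+/+, 713811 to 945032 in sham PolgD257A and 706481 to 863996 in sham Polg+/+ kidneys. All 8 injured tubule markers were higher in each genotype, with sums of 44826 to 70624, 12611 to 40756, 3034 to 3504 and 2909 to 3462 in the same order of groups. Of 7 fibroblast markers 5 and 4 were higher and 1 lower in PolgD257A and Polg+/+ kidneys, with sums of 11039 to 18983, 5506 to 12626, 3399 to 4636 and 3817 to 4873.

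Of 12 macrophage and monocyte markers 7 and 5 were higher and 1 lower, with sums of 3676 to 5368, 2717 to 4637, 3047 to 3689 and 3131 to 4008 in that order. These markers include C1qa, C1qb, C1qc and Itgam, which are also among the other complement genes described below. All of these shared genes were called higher in PolgD257A kidneys, and all but C1qc in Polg+/+ kidneys. Of 8 neutrophil markers 3 passed the filter, of which 3 and 2 were higher, with sums of 83.7 to 505, 38.9 to 127, 16.0 to 53.9 and 20.0 to 36.7. Mpo was at 0 in 3 groups, Elane in B-IRI Polg+/+ and sham PolgD257A kidneys, and Ly6g in sham PolgD257A kidneys. Of 8 hepatocyte markers 6 passed the filter, of which 2 were higher and 3 lower in each genotype, with sums of 1246 to 1845, 1994 to 2646, 2263 to 4207 and 1432 to 3751. Of other nephron segments, 3 of 4 thick ascending limb, 3 of 3 distal convoluted tubule and 4 of 6 collecting duct markers were lower in PolgD257A kidneys, against 1, 2 and 2 in Polg+/+ kidneys, where 1 thick ascending limb and 1 collecting duct marker were higher. The thick ascending limb sums were 68095 to 120311, 126502 to 148461, 131187 to 161897 and 127870 to 157155 in the same order of groups. The median change in PolgD257A kidneys was -1.32 for the thick ascending limb, -0.64 for the distal convoluted tubule and -0.44 for the collecting duct list, against -0.97 for the proximal tubule list. In Polg+/+ kidneys these medians were -0.27, -0.32, -0.03 and -0.44 in the same order. The median collecting duct sum was higher there after B-IRI (19706.5 against 16609.3 in sham). The falls of Cfb and Cd55 thus went with falls of markers of several tubule segments in PolgD257A kidneys. In Polg+/+ kidneys they went mainly with falls of proximal and distal convoluted tubule markers. The rise of C3 went with rises of injured tubule, fibroblast and neutrophil markers. It also went with rises of some macrophage markers, of which several are complement genes themselves. The part of these cell types in the complement values was not tested.

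Havcr1 encodes KIM-1, a membrane protein that injured tubule cells make. It held 25924 to 36062 normalized counts in B-IRI PolgD257A and 5441 to 24888 in B-IRI Polg+/+ kidneys, and the interaction of surgery and genotype was 1.07 ± 0.35 (adjusted p = 0.035, limma). The 9 genes were set against Havcr1 within each B-IRI group, 18 relations of 6 libraries each. With 6 libraries the smallest two-sided exact permutation p of Spearman's rho is 0.00278. For 1 relation alone that becomes 0.05 after adjustment over the 18, so it could not pass by rho. The absence of calls therefore says little about these relations. None passed after adjustment over the 18, by Pearson's r or Spearman's rho, and 1 had an unadjusted exact permutation p under 0.05. That was C4b in B-IRI Polg+/+ kidneys, where r was 0.98 (exact permutation p = 0.00278, two-sided, over 720 pairings, adjusted p = 0.05) and rho 0.94 (exact permutation p = 0.0167, adjusted p = 0.3). Without the 2 libraries farthest from the median of Havcr1, r was 0.83. In B-IRI PolgD257A kidneys the r of C4b was 0.55 (exact permutation p = 0.249, adjusted p = 0.746). C3 had an r of -0.05 in B-IRI PolgD257A and 0.26 in B-IRI Polg+/+ kidneys (exact permutation p = 0.957 and 0.658, adjusted p = 0.994 and 0.846), with rho of 0.54 and -0.14 (exact permutation p = 0.297 and 0.803, adjusted p = 0.594 and 0.963). Without the 2 libraries farthest from the median of Havcr1 the r of C3 was 0.97 and -0.18 over 4 libraries, so the value in B-IRI PolgD257A kidneys turned on the libraries included and no relation of C3 to Havcr1 can be read from 6 kidneys.

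**Figure D4:**
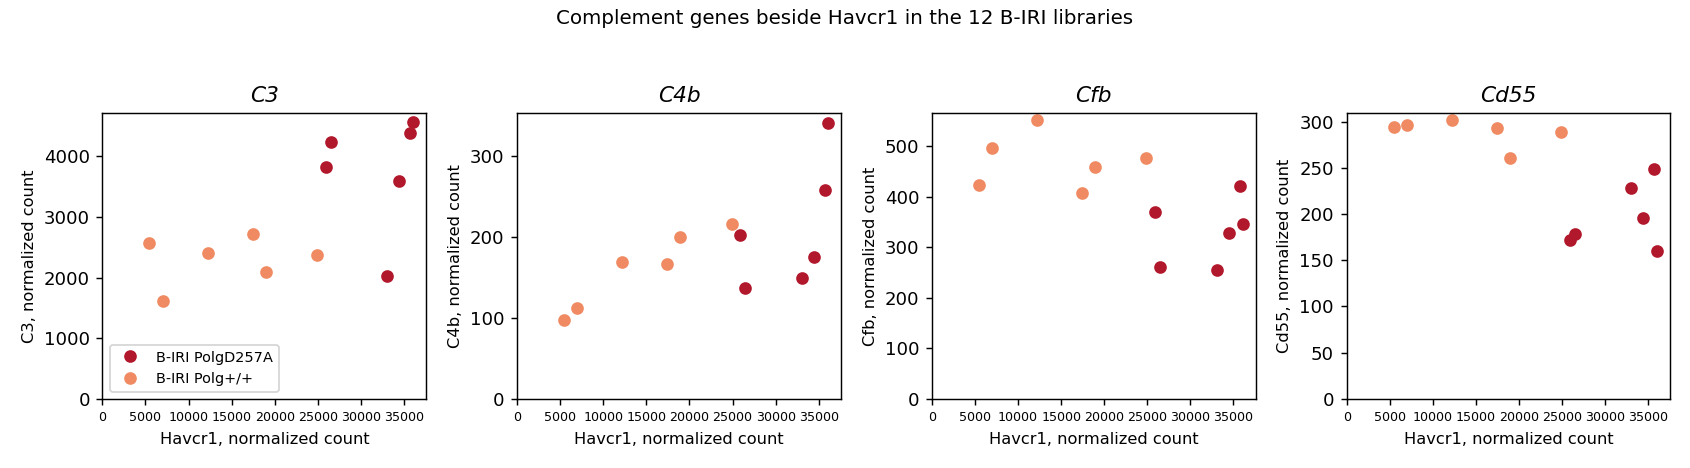
Normalized counts of C3, C4b, Cfb and Cd55 (vertical axes) against those of the injury marker Havcr1 (horizontal axes) in the 12 B-IRI kidneys, coloured by genotype. C4b is higher where Havcr1 is higher in Polg+/+ kidneys (r = 0.98, adjusted exact permutation p = 0.05), the r of C3 (-0.05 in PolgD257A and 0.26 in Polg+/+ kidneys) becomes 0.97 and -0.18 without the 2 libraries farthest from the median of Havcr1, and the Cd55 values of the genotypes do not overlap.

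Over all 24 libraries, deviations from the group means (log2 scale) show which genes varied together from kidney to kidney. These correlations are given as a description only, since all points share libraries and depth. C1ra and C1s1, adjacent genes for the partner proteases, varied together (r = 0.82), as did Cfb and Cfi (0.74), and Serping1 with C1ra and with C1s1 (0.73 each). C3 went most with C4b among the 9 (0.56) and least with Serping1 (-0.37). The libraries with fat-cell RNA are included in all these r, which were not computed without them. Among them, sham Polg+/+ replicates 3 and 5 held the highest C3 (587 and 511) and C4b (273 and 293) of their group. Among all genes tested, C1ra was closest to Bgn, Sdc3 and Olfml3 (r of 0.89, 0.89 and 0.89), C1s1 to Svep1 and Ptgis (0.87 and 0.86), and Serping1 to Matn2, Adamts10 and Prelp (0.88, 0.86 and 0.85). C3 was closest to Galr3, Pcdh8 and Serpina3n (0.76, 0.73 and 0.73), and C4b to Igtp, Sox9 and Erap1 (0.79, 0.78 and 0.78). Cd55 was closest to Mvd, Ggct and Slc17a3 (0.85, 0.84 and 0.84), Cfb to Chd3, Nat8f7 and Cfi (0.81, 0.74 and 0.74), Cfi to Kntc1, Kctd20 and Tbp (0.85, 0.81 and 0.77), and C2 to Ppp1r3c, Gxylt2 and Zmiz1os1 (0.76, 0.74 and 0.72).

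Around these 9 genes, 47 other complement genes were listed by role, of which 32 passed the filter on low values. After B-IRI in PolgD257A kidneys 11 were higher, 14 lower and 7 did not pass, and in Polg+/+ kidneys 9 were higher, 7 lower and 16 did not pass. Over all genes tested 30.2% were higher and 30.3% lower in PolgD257A kidneys and 21.4% higher and 19.8% lower in Polg+/+ kidneys, so these counts are read as a description of single genes. The counts in PolgD257A kidneys include C5ar2, Colec11, Masp2 and Mbl2, which passed the filter through groups with higher values, as given below. The classical recognition chains C1qa and C1qb, made mainly by macrophages, were higher in each genotype (0.39 and 0.47 in PolgD257A, 0.40 and 0.44 in Polg+/+), and C1qc in PolgD257A (0.48). The call of C1qb in Polg+/+ kidneys was lost without B-IRI Polg+/+ replicate 2 or 3, sham Polg+/+ replicate 6, or the libraries with fat-cell RNA. C4a, the copy of C4b known in mice as sex-limited protein, fell in each genotype (log2 -1.74 ± 0.31 in PolgD257A and -1.66 ± 0.31 in Polg+/+ kidneys, adjusted p = 2.2e-05 and 1e-04, limma), while C4b did not pass. Sham PolgD257A replicates 3 and 6, with fat-cell RNA, held 159 to 161 normalized counts of C4a and the other 4 libraries 47.8 to 87.6, and in sham Polg+/+ kidneys the 2 such libraries (113 to 115) lay within the range of the other 4 (36.2 to 124). Without these libraries the change of C4a was -1.29 in PolgD257A and -1.50 in Polg+/+ kidneys (adjusted p = 0.00084 and 0.00047, limma).

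In the lectin pathway, Masp1, a protease of the recognition complex, held 133, 204 and 244 normalized counts (lowest, median and highest of 6) in B-IRI PolgD257A, 52.7, 104 and 168 in B-IRI Polg+/+, 21.7, 39.6 and 58.0 in sham PolgD257A and 30.8, 43.4 and 60.8 in sham Polg+/+ kidneys. It rose by 2.21 ± 0.26 in PolgD257A and by 1.08 ± 0.26 in Polg+/+ kidneys (adjusted p = 4.3e-08 and 0.0016, limma). The other 4 lectin pathway genes tested, Colec11, Masp2, Mbl1 and Mbl2, fell in PolgD257A kidneys, and Colec11 and Masp2 in Polg+/+ kidneys, where 30.3% and 19.8% of all genes were lower. Colec11, Masp2 and Mbl2 had few counts, with means of 17.7, 17.65 and 6.2 normalized counts over the 24 libraries. In B-IRI PolgD257A kidneys they held at most 8.699, 8.453 and 5.917, under the minimum of the filter. Colec11 and Masp2 passed it through sham kidneys, with at least 20.03 and 19.03 there. Mbl2 passed mainly through sham PolgD257A kidneys (6.821 to 20.56). The falls of Colec11, Masp2 and Mbl2 in PolgD257A kidneys are therefore not independent of the filter. Mbl1, a mannose-binding lectin, fell by 0.78 ± 0.20 in PolgD257A kidneys (adjusted p = 0.0017, limma), against a change of 0.12 ± 0.20 in Polg+/+ kidneys that did not pass (adjusted p = 0.66, limma).

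In the terminal pathway, C8a, a chain of the membrane attack complex, held 40.8, 108 and 173 normalized counts (lowest, median and highest of 6) in B-IRI PolgD257A, 183, 229 and 367 in B-IRI Polg+/+, 626, 763 and 878 in sham PolgD257A and 547, 709 and 808 in sham Polg+/+ kidneys. The B-IRI groups did not overlap with each other or with the sham groups. C8a fell by 3.02 ± 0.24 in PolgD257A and by 1.51 ± 0.24 in Polg+/+ kidneys (adjusted p = 2.7e-11 and 1.1e-05, limma). C8g, the gamma chain of the same protein C8, fell by 1.25 ± 0.11 and 0.81 ± 0.11 (adjusted p = 1.2e-10 and 9.9e-07, limma), and C7 did not pass (0.12 ± 0.17 and 0.23 ± 0.17, adjusted p = 0.58 and 0.3, limma). Several of these genes overlap others on the opposite strand, among them C8g (Fbxw5), C8a (Gm17662), Masp1 (Rtp4) and Masp2 (Tardbp). Complement factor D (Cfd), which cleaves factor B and is made by fat cells, was lower in PolgD257A kidneys (-3.14 ± 1.21, adjusted p = 0.027, limma) with overlapping groups. That call was lost without the libraries with fat-cell RNA (-1.22, adjusted p = 0.25, limma), and without B-IRI PolgD257A replicate 4 or 5 (-2.94 and -2.94) or sham PolgD257A replicate 3 or 6 (-2.44 and -2.31) alone.

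Among regulators, Clu (clusterin, which binds terminal complement complexes) held 20736, 40048 and 61219 normalized counts (lowest, median and highest of 6) in B-IRI PolgD257A, 9329, 17183 and 25882 in B-IRI Polg+/+, 5793, 6345 and 9246 in sham PolgD257A and 5348, 7381 and 7835 in sham Polg+/+ kidneys. It rose by 2.50 ± 0.22 in PolgD257A and by 1.22 ± 0.22 in Polg+/+ kidneys (adjusted p = 3.2e-10 and 8.8e-05, limma). Cpn1, the carboxypeptidase subunit that inactivates complement peptides, rose by 0.85 ± 0.11 and 0.87 ± 0.11 (adjusted p = 1.6e-07 and 4.3e-07, limma).

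Of the 6 other membrane regulators tested, 5 fell in PolgD257A kidneys (Cd46, Cd59a, Cd59b, Csmd1 and Susd4) and 2 in Polg+/+ kidneys (Cd46 and Susd4), where 30.3% and 19.8% of all genes were lower. The call of Csmd1 was lost without B-IRI PolgD257A replicate 3, 4 or 6 or sham PolgD257A replicate 1, 2, 3 or 5, and that of Susd4 in Polg+/+ kidneys without B-IRI Polg+/+ replicate 2, 3 or 6 or sham Polg+/+ replicate 3, 4, 5 or 6. Cd59b, a copy of the inhibitor of the membrane attack complex, fell by 1.33 ± 0.14 in PolgD257A kidneys (adjusted p = 6.3e-09, limma), and its change in Polg+/+ kidneys did not pass (-0.26 ± 0.14, adjusted p = 0.14, limma). Cr1l, the mouse regulator Crry, did not pass in either genotype (0.07 ± 0.05 and 0.08 ± 0.05, adjusted p = 0.21 and 0.16, limma). Of 8 receptors tested 5 rose and 1 fell in PolgD257A kidneys and 4 rose in Polg+/+ kidneys, where 30.2% and 21.4% of all genes were higher. Of the 5, C5ar2 passed the filter through B-IRI kidneys alone (at most 7.685 normalized counts in sham kidneys), so its rise is not independent of the filter. Its call was lost without sham PolgD257A replicate 4. The call of Itgax in Polg+/+ kidneys was lost without B-IRI Polg+/+ replicate 2, 5 or 6 or sham Polg+/+ replicate 1, 2 or 5. C5ar1, the C5a receptor of myeloid cells, rose by 2.66 ± 0.26 and 2.45 ± 0.26 (adjusted p = 1.6e-09 and 3.7e-08, limma), and the endothelial and myeloid protein Cd93 by 1.10 ± 0.13 and 0.49 ± 0.13 (adjusted p = 3.1e-08 and 0.003, limma).

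**Figure D5:**
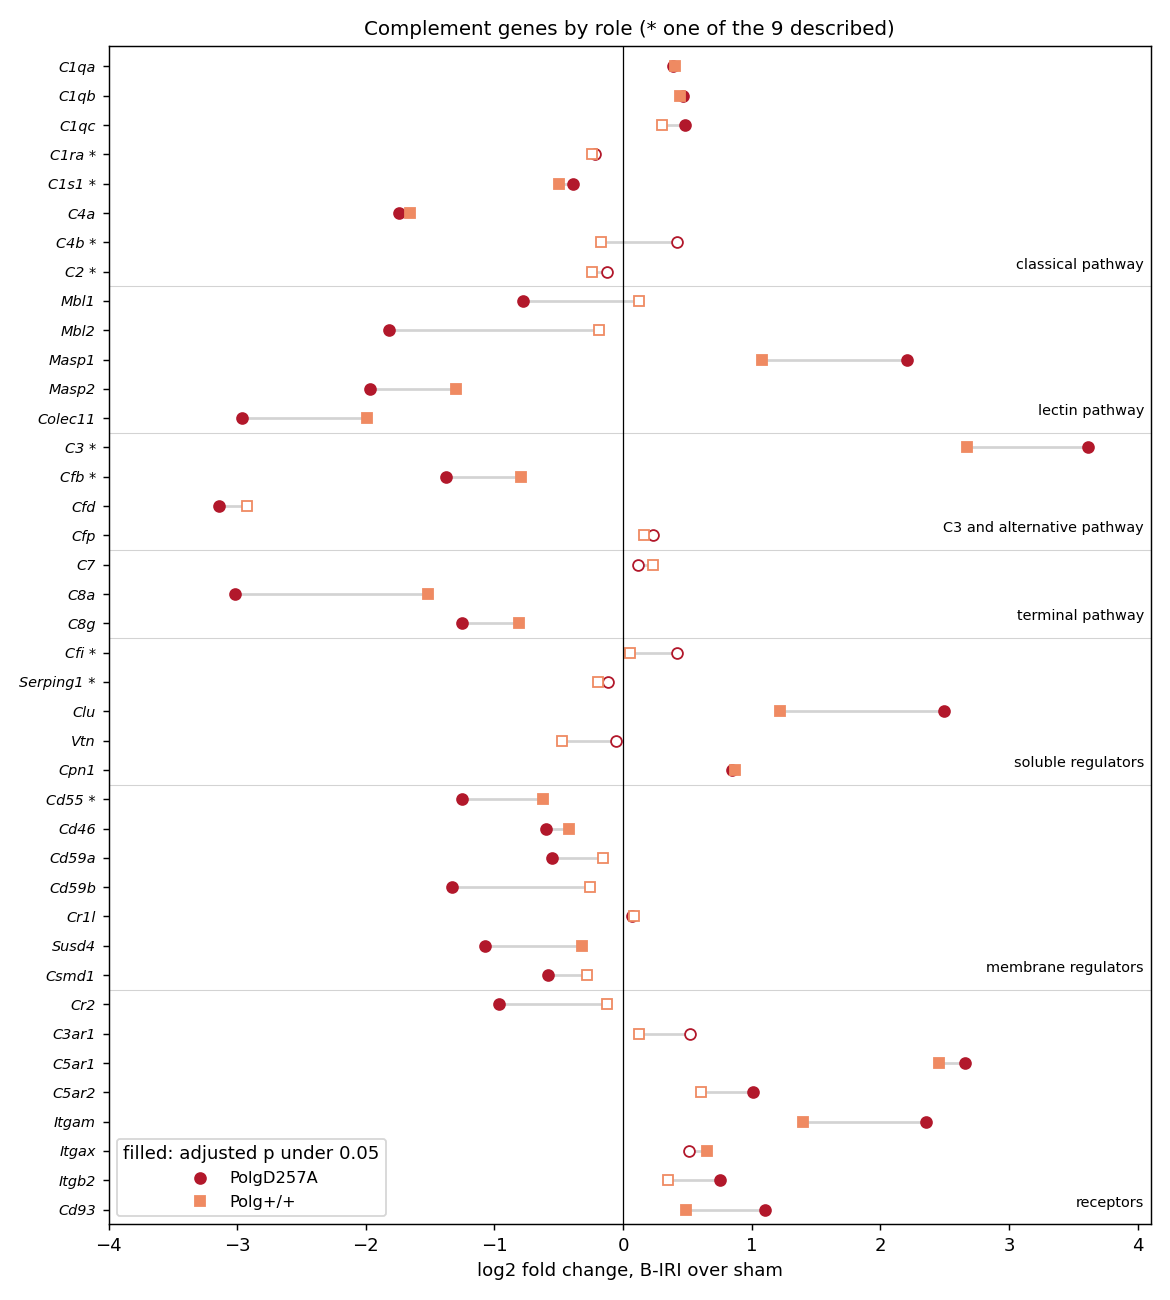
Log2 fold changes of B-IRI over sham (horizontal axis) for complement genes that passed the filter, grouped by role from top to bottom, circles for PolgD257A and squares for Polg+/+, filled where called, with asterisks on the 9 genes described. C3, C5ar1, Clu, Itgam and Masp1 lie farthest right and C8a, Colec11 and Cfd farthest left, and all called membrane regulators lie left of 0.

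Between the genotypes after B-IRI, 4 of the 32 other genes were higher (Cd93, Clu, Itgam and Masp1) and 8 lower (C8a, C8g, Cd59a, Cd59b, Cr2, Masp2, Mbl1 and Susd4) in PolgD257A kidneys, where 14.3% of all genes were higher and 15.2% lower. Clu was 2.35-fold higher (log2 1.23 ± 0.22, adjusted p = 0.00015, limma) and C8a 2.68-fold lower (log2 -1.42 ± 0.24, adjusted p = 5.6e-05, limma). The call of Itgam (0.66 ± 0.24, adjusted p = 0.037, limma) was lost without B-IRI PolgD257A replicate 1, 2 or 4 or B-IRI Polg+/+ replicate 1, 4 or 5. The call of Mbl1 (-0.64 ± 0.20, adjusted p = 0.018, limma) was lost without B-IRI PolgD257A replicate 1 (-0.52, adjusted p = 0.06, limma). The interaction called 3 higher (Cd93, Clu and Masp1) and 7 lower (C8a, C8g, Cd59a, Cd59b, Cr2, Mbl1 and Susd4), where 6.87% of all genes were higher and 9.08% lower. Of these 10 calls 4 (C8a, Cd59b, Clu and Susd4) held under every alternative tried. That of Cd93 was lost without the libraries with fat-cell RNA (0.52, adjusted p = 0.12, limma), and those of Mbl1, Masp1, Cr2, C8g and Cd59a were lost with 8, 10, 11, 13 and 16 of the 24 libraries left out singly. The interaction was 1.28 ± 0.31 for Clu (adjusted p = 0.0068, limma), -1.50 ± 0.33 for C8a (adjusted p = 0.0032, limma) and -1.07 ± 0.20 for Cd59b (adjusted p = 0.00081, limma). In sham kidneys limma called 0 of the 32, where 0.126% of all genes were called. By limma 2 had an unadjusted p under 0.05 (Cd59b and Mbl2), and edgeR and DESeq2 called 0 as well.

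The authors' deposited table compares PolgD257A with Polg+/+ after B-IRI for 1401 genes, with shrunken fold changes of at least 0.50 in size. The authors' deposited table lists 2 of the 9 genes, C3 (log2 0.55 ± 0.27, s-value 0.0036) and Cd55 (log2 -0.52 ± 0.11, s-value 2e-07), and not Cfb. Of the other complement genes, 9 are in the authors' deposited table, among them Clu (log2 1.14 ± 0.25) and C8a (log2 -1.25 ± 0.26).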

How the data were processed

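RNA of 24 mouse kidneys was extracted with RNeasy kits and made into libraries with NEBNext Ultra II RNA kits, per the labels' protocols. FastQC, STAR, SAMtools, featureCounts and DESeq2 with GRCm38.p6 are named in the submitters' processing notes, without versions. Each deposited signal value is a normalized count, a gene's reads divided by the authors by 1 size factor per library (0.740 to 1.31). Multiplying by that factor gave whole reads for 100.0% of values within 0.001. A second deposited table holds the authors' mean signal, shrunken log2 fold changes with standard errors, and s-values, which are read like an adjusted p-value. Column names were read as the labels' groups (Ctrl as Polg+/+, Mut as PolgD257A, SurgBIR as B-IRI), which is inferred. Of 55416 gene IDs 52083 matched a symbol by ID without version, and 35 with version, so coordinates (GENCODE M21) serve for location only.

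The labels call the 6 libraries of a group biological replicates. Values were tested as log2(normalized count + 1) by limma-trend, two-sided (limma 3.58.1 in R 4.3.3). A single model gave each group its mean, and 17430 genes with 10 or more normalized counts in 6 or more libraries entered it, with Benjamini-Hochberg adjustment and a threshold of 0.05. The pseudocount of 1 understates changes of low genes, and 1 variance per gene is pooled over the groups. Tried besides were other pseudocounts (0.5 and 5), filters (none, or 50) and scalings (TMM, quantile), fits of the compared libraries alone or with a replicate block, count models on the recovered reads (DESeq2 1.42.0 and edgeR 4.0.16), and each library left out. Leaving out libraries with over 50 normalized counts of Adipoq was added after seeing the data. Only the limma fit was tested on simulated counts, in which 17230 of the 17430 genes were left unchanged, unlike the many calls in these data. Named were all 9 genes. Of the other complement genes, the rule took per contrast the 3 largest rises and falls whose mean was 50 normalized counts or more, and up to 2 genes per role with the highest mean that did not pass. Other genes named in the text were chosen after their values were seen. The genes nearest each of the 9 are the 3 with the highest Pearson r. Results for 1 gene that these rules select are not reported here. Motifs were searched in the 250 bases before each start. The 9 genes and all lists were chosen with earlier results of these data known. Python 3.11.15, NumPy 2.4.6, pandas 2.3.3, SciPy 1.17.1 and Matplotlib 3.10.9 were used for the rest.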

Additional observations from a re-analysis of the deposited data

Results flagged for a closer look

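C3 in sham PolgD257A replicate 3 (499.0 normalized counts) stood apart from the other 5 libraries of its group (225 to 323), by Dixon's criterion at the 95% level. This library is one of the 4 with over 50 normalized counts of Adipoq. Cd55 in B-IRI Polg+/+ replicate 2 (260.3 normalized counts) stood apart below the other 5 of its group (289 to 302) by the same criterion. These were 2 of 36 combinations of gene and group looked at and at that level chance alone singles out some groups.

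The effect of B-IRI differed between the genotypes, by the interaction in limma, for C3 (0.94), Cfb (-0.58) and Cd55 (-0.63), as described above. It also differed for the injury markers Havcr1 (1.07) and Lcn2 (2.22).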

How the results depend on the processing

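Of the 9 genes, C3, Cfb and Cd55 kept their direction and their calls in both injury contrasts and between the genotypes after B-IRI under all 35 alternatives, and Cfb and Cd55 kept theirs in the interaction under all 34. The C3 interaction was lost without a filter (0.94, adjusted p = 0.062, limma), as was C1s1 in PolgD257A (-0.39, adjusted p = 0.059, limma). Without the libraries with fat-cell RNA, C4b in Polg+/+ kidneys reversed to 0.17. Of the other complement genes' calls, 22 of 25, 13 of 16, 10 of 12 and 4 of 10 held under every alternative for injury in PolgD257A, injury in Polg+/+, genotype after B-IRI and interaction. The interaction calls over all 56 complement genes numbered 13, against 7 without a filter, 8 without the libraries with fat-cell RNA, and 7 to 14 with single libraries left out (7 without B-IRI PolgD257A replicate 1 and 8 without B-IRI Polg+/+ replicate 5). The cause was not tested, though the last 2 kinds of fit use fewer libraries. Over all genes tested the interaction calls fell as well, from 1198 higher and 1582 lower. They were 842 and 1197 without a filter (35043 genes tested) and 653 and 957 without the libraries with fat-cell RNA. Without B-IRI PolgD257A replicate 1 they were 857 and 1245, and without B-IRI Polg+/+ replicate 5 they were 890 and 1281.

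Calls with 1 library left out ranged for the 9 genes from 3 to 5 for injury in PolgD257A, 4 to 5 for injury in Polg+/+, 3 to 3 for genotype after B-IRI, 0 to 0 for genotype in sham and 2 to 3 for the interaction. With the replicate block the 9 genes gave 4, 4, 3, 0 and 3 calls in these contrasts, as in the fit without it, and all 56 gave 30, 20, 14, 0 and 12. Same-numbered libraries did not deviate together (r of -0.33 to 0.17 over 36 pairs, of which 2 were over 0.1, and 7 of 72 best matches had the same number). This check cannot show whether same-numbered animals shared anything beyond the number. Genes with few counts are limited by depth: 15 of the 56 complement genes did not pass the filter.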
